A study of Homo sapiens with 16 samples.

Results

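The clustered protocadherins (PCDH) fill 3 neighboring gene arrays on chromosome 5, and the acetylated peaks listed in these arrays were examined in epithelial ovarian cancer (EOC) cell lines. A listed peak was taken as a member when it shared at least 1 bp with the alpha window (chr5:140150001-140400000, 250 kb), the beta window (chr5:140420001-140650000, 230 kb) or the gamma window (chr5:140700001-140900000, 200 kb), all in hg19. Of 179689 peaks in 8 lists, 131 were members, of which 31 lay in the alpha, 52 in the beta and 48 in the gamma window. The windows are fixed positions, chosen with earlier results of these data known.

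Clustered protocadherins are cell adhesion proteins of the cadherin family that mark single neurons with different combinations of surface molecules. In the alpha and gamma arrays, each variable first exon has its own promoter and is spliced to shared constant exons, whereas each beta gene is a single exon. Promoter choice depends on distant enhancers, the insulator protein CTCF and cohesin, and in several tumor types the arrays are known for long stretches of silenced and DNA-methylated promoters. H3K27ac marks active enhancers and promoters, and H3K9ac marks mainly active promoters.

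The study compared cPt-sensitive and -resistant EOC lines by ChIP-seq, with 1 library for each line and mark. H3K27ac was profiled in untreated A2780 cells, an EOC line of the endometrioid type that responds to cPt, and in A2780cis, its resistant counterpart. It was also profiled in CAOV4, a high-grade serous line, and in CAOV4cis, which was derived from it under increasing cPt, and in A2780 cells after 1 week of MBD3 knockdown with shMBD3.26 or shMBD3.232, while H3K9ac was profiled only in A2780 and A2780cis. Both resistant lines were kept in medium with 1 µM cPt, and are labeled as cisplatin treated, so that resistance and the presence of the drug cannot be told apart. The knockdown cells carried a Tet-on system, were selected with G418, induced with doxycycline and sorted for GFP, whereas the A2780 list used beside them came from untreated cells. MBD3 is a subunit of the NuRD complex, which removes acetyl groups from histones and remodels nucleosomes. Cells with a control shRNA and the input libraries were not analysed here. Markers of the tissue of origin could not be checked in peak lists without gene positions.

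The lists held between 15365 peaks (A2780cis H3K9ac) and 28662 peaks (A2780 H3K27ac), and gave the place and width of each peak but neither its height nor its reads, so that the depth behind a peak is unknown. The starts and ends of the 131 members fell on multiples of 200 bp, and neighbors within a list were separated by 1000 bp or more. With 1 library per condition, no difference between lines has a replicate check and none was tested. Where a share of regions is given, its 95% interval is an exact Clopper-Pearson interval and covers counting error only. Counts of regions or peaks in a comparison are followed by the same share over the whole of the compared lists.

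RefSeq (GRCh38.p14) orders 15 protein-coding alpha genes from PCDHA1 to PCDHAC2, 16 beta genes from PCDHB1 to PCDHB15 and 22 gamma genes from PCDHGA1 to PCDHGC5. The peaks are given in hg19, so no peak was assigned to a gene. The next protein-coding genes are ZMAT2 before and DIAPH1 after the arrays, and SLC25A2 and TAF7 lie between them.

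Promoter sequences, each from 250 bases before to 50 bases after the start of a gene, were found in RefSeq for 47 of the 53 protein-coding genes. They are shown because the arrays are rows of many similar promoters, and a 10-letter word was searched for over all of them and then within each array. The 10-letter word held by the most of the 47 promoters, counted on both strands, was CAGCGCCACC, which reads GGTGGCGCTG on the other strand. It was found in 12 promoters, all of them beta genes. Over all genes, 93 of 27305 had it in a promoter (0.341%), these 12 included. Among the 14 beta promoters, it was absent in PCDHB1 and PCDHB14. In all 12 cases the word lay on the strand opposite to the gene. The word is in capitals in the following 6 of the 12 sites, written 5′ to 3′ on that opposite strand, which show how far the bases beside it are shared.
PCDHB2: ggctgCAGCGCCACCccgcgtctc
PCDHB5: gcctgCAGCGCCACCaggcgtcct
PCDHB7: gccagCAGCGCCACCttgcgtttt
PCDHB8: tcctgCAGCGCCACCacgggtcct
PCDHB9: gtctgCAGCGCCACCttgtggctt
PCDHB15: gcctgCAGCGCCACCatgcgttgt
Chosen in the same way within each array after the first search, the word of the alpha promoters was AGCGACATCA, in 8 of 13 promoters. Over all genes, 12 of 27305 had it (0.0439%), these 8 included, and 2 further words were found equally often in the alpha promoters. The word of the gamma promoters was ACAGCGGCGC, in 9 of 20 promoters and in 45 of all genes (0.165%), these 9 included. Neither of these 10-letter words was found in a promoter of another protocadherin array, but all 3 words hold the letters AGCG. Read on the strand of the gene, the word of an array began at position 164 to 207 of the 300 bases in the alpha promoters. It began at 167 to 249 in the beta and at 152 to 207 in the gamma promoters, counted from the 5′ end. It thus began before the gene start in all of them, and the PCDHB8 word, from position 249, reached over that start. One promoter of each array is given on the strand of the gene, with the word, as read on that strand, in capitals. These are PCDHA1 (chr5:140785890-140786189), PCDHB15 (chr5:141245145-141245444) and PCDHGA1 (chr5:141330264-141330563), all on the plus strand of GRCh38.p14 and not comparable by position with the peaks.
PCDHA1: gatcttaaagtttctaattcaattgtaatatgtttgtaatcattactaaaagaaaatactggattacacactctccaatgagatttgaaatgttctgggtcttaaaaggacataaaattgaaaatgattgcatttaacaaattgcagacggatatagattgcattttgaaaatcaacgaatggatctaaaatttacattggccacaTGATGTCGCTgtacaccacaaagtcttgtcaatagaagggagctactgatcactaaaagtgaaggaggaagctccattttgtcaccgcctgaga
PCDHB15: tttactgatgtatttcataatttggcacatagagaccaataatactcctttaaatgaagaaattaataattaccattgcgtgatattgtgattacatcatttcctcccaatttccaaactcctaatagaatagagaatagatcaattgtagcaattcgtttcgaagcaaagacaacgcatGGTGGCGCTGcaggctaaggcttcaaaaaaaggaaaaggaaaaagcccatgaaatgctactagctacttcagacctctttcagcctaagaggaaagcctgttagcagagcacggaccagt
PCDHGA1: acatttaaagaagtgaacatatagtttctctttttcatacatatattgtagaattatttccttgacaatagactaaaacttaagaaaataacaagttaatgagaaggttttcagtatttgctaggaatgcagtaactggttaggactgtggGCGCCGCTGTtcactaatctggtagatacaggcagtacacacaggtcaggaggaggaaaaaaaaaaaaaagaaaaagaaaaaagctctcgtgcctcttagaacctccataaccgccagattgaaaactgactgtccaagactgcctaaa
A shared word is a description of letters, and no factor was assigned to it.

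The protocadherin promoters were poorer in G and C than those of most genes. The median GC content was 37.3% in the alpha, 40.8% in the beta and 42.0% in the gamma promoters, against 58.3% over all 27305 genes. The median number of CpG dinucleotides in the 300 bases was 7, 7.5 and 7, against 14 over all genes. Only PCDHAC1, PCDHAC2, PCDHGC3 and PCDHGC4 were above the median GC content of all genes, at 66.0%, 63.0%, 59.0% and 60.7%. These 4 belong to the C-type genes, which stand at the end of the alpha and gamma arrays and differ in sequence from the other members.

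Peaks covered a small share of the protocadherin windows in every line, and the gamma window held the largest share in each of the 8 lists. In some lists this rank of the gamma window depended on the peaks at its end, as given below. Over the 3 windows together, 680 kb in all, H3K27ac peaks covered 3.41% in A2780, 4.38% in A2780cis, 4.18% in CAOV4 and 6.91% in CAOV4cis. H3K27ac peaks covered 3.21% in A2780 with shMBD3.26 and 2.18% with shMBD3.232. H3K9ac peaks covered 0.588% in A2780 and 3.47% in A2780cis. The value was thus higher in the resistant line of each pair, and the shMBD3.232 list had the lowest H3K27ac value. Without peaks at a window edge, the shMBD3.232 value was 1.88%, beside 1.76% in A2780. That setting also left out an A2780 peak of 9.2 kb that ends exactly at the edge of the gamma window without crossing it. Peaks that begin at the first base of a window were kept. As shares of the listed part of chromosome 5, the same lists covered between 2.28% and 2.89% for H3K27ac, and 1.57% (A2780) and 1.52% (A2780cis) for H3K9ac. The A2780 H3K9ac list and the shMBD3.232 list were below their chromosome 5 value in the protocadherin windows, and the other 6 lists were above it. This order depends on the window edges and on that peak. With each window moved out by 10 kb, the shMBD3.232 value was 2.62%, above its chromosome 5 value of 2.29%. Without peaks at a window edge, and without the 9.2 kb peak, the A2780 H3K27ac value was 1.76%, below its chromosome 5 value of 2.89%.

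**Figure D1:**
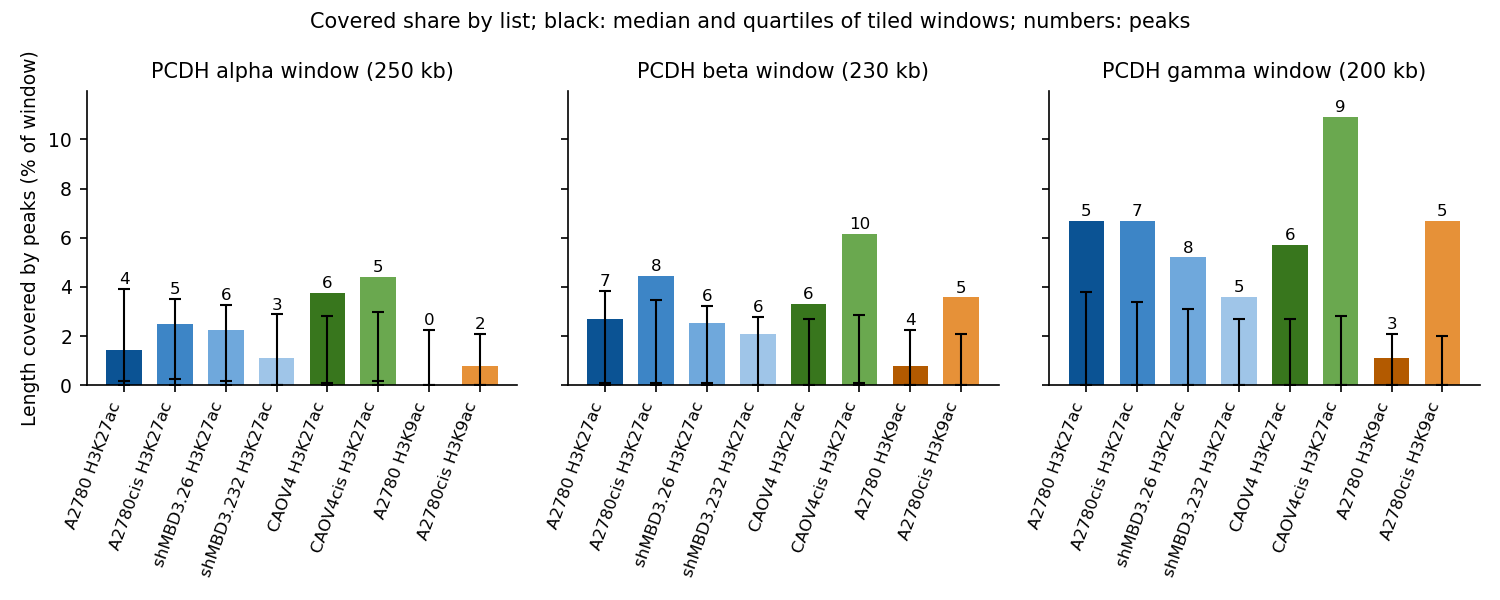
Share of each protocadherin window covered by peaks (vertical axis, percent of the window) in the 8 lists (horizontal axis), with the number of peaks above each bar. Black marks show the median and quartiles of windows of the same length tiled over the chromosomes in that list. The CAOV4cis bar is the highest in each window, at 4.4%, 6.17% and 10.9%, and the A2780 H3K9ac bar is at 0 in the alpha window.

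The 1 Mb on either side of the arrays carried more of both marks, whereas the short gaps between the windows carried less in all 8 lists. In the 1 Mb before the alpha window, peaks covered 7.5% to 11.2% in the 6 H3K27ac lists, and 6.14% (A2780) and 8.2% (A2780cis) in the H3K9ac lists. In the 1 Mb after the gamma window, they covered 9.82% to 18.8% in the H3K27ac lists, and 12.0% (A2780) and 10.9% (A2780cis) in the H3K9ac lists. The protocadherin windows were therefore below both flanks in all 8 lists. The gap between the alpha and beta windows was covered to 0% to 3.0%, and that between the beta and gamma windows to 0.8% to 1.6% in the H3K27ac lists and to 0% in both H3K9ac lists, with at most 1 peak per gap and list. These peaks were members that cross the start of the beta or gamma window, and the gaps held no peak of their own. The alpha window by itself was below the gap after it in every A2780-derived H3K27ac list (1.44% beside 2.0% in A2780). The same held for H3K9ac in A2780cis (0.8% beside 3.0%). In both CAOV4 lines the alpha window was above that gap, and for H3K9ac in A2780 both were at 0%. Windows of the same length tiled over the chromosomes had medians of 0% to 0.24%. On chromosome 5 the last listed peak ended between 151154000 and 152192800, so that the lists may not hold whole chromosomes, and the chromosome 5 shares and tiled windows cover the listed stretch only. Wherever a list held a peak in a protocadherin window, 61.6% to 91.1% of the tiled windows had less covered length.

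The members were narrow. Their median width was 1100 bp in A2780 H3K27ac, 1300 bp in A2780cis, 1200 bp in CAOV4 and 1800 bp in CAOV4cis, against 2200, 2800, 2200 and 2200 bp over the whole lists. It was 800 bp in both shRNA lists, against 2000 bp (shMBD3.26) and 2600 bp (shMBD3.232). The H3K9ac members of A2780 had a median of 400 bp and those of A2780cis of 1700 bp, against 1600 and 2600 bp. In each of the 8 lists the members had a lower median width than the list, and 104 of the 131 members (79.4%) were narrower than the median peak of their own list. Peaks over 2 kb made up 6.25% of the members in A2780 H3K27ac, 20.0% in A2780cis, 27.8% in CAOV4 and 37.5% in CAOV4cis, where the whole lists held 50.4%, 62.0%, 53.0% and 51.5%. None of the 7 H3K9ac peaks of A2780 was over 2 kb, beside 40.9% of the whole list. In A2780cis, 5 of 12 H3K9ac peaks were (41.7%), beside 59.1%.

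**Figure D2:**
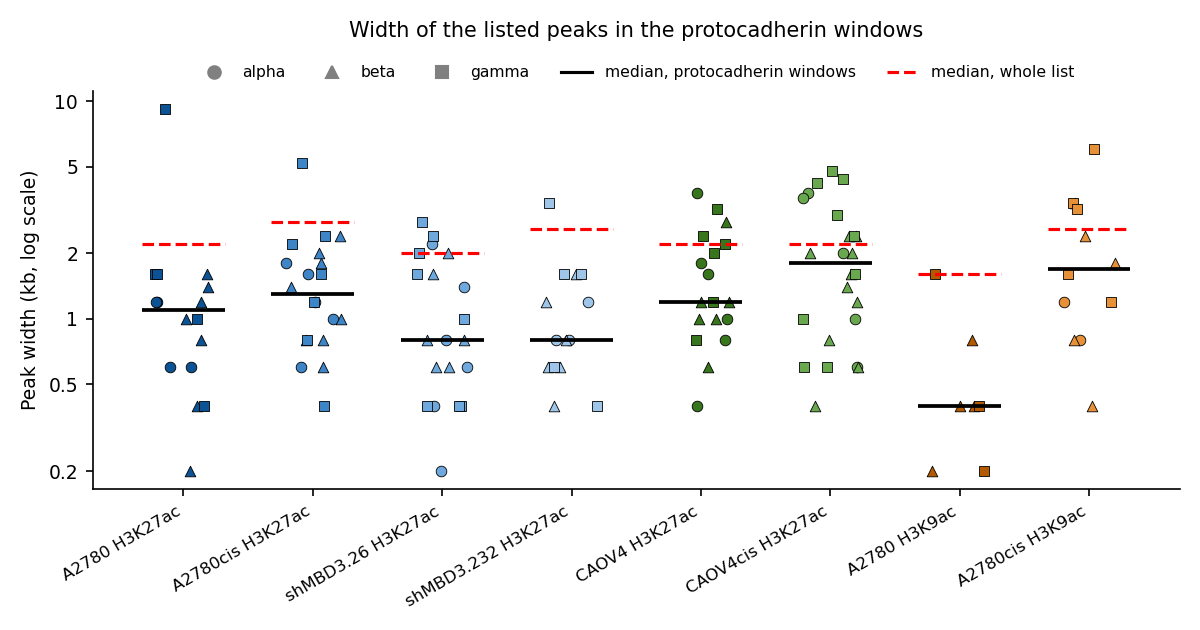
Width of each of the 131 member peaks (vertical axis, kb, log scale) in the 8 lists (horizontal axis), with circles for alpha, triangles for beta and squares for gamma. Black lines mark the median of the members and dashed red lines the median of the whole list, which is higher in every list. The widest member, at 9.2 kb, is an A2780 H3K27ac peak of the gamma window.

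In the alpha window, few and short peaks were listed. A2780 had 4 H3K27ac peaks over 3.6 kb (1.44% of the window) and A2780cis had 5 over 6.2 kb (2.48%). CAOV4 had 6 over 9.4 kb (3.76%) and CAOV4cis had 5 over 11.0 kb (4.4%). With shMBD3.26 there were 6 peaks over 5.6 kb (2.24%), and with shMBD3.232 there were 3 over 2.8 kb (1.12%). The serous lines thus had the highest covered lengths. No H3K9ac peak was listed in A2780, and A2780cis had 2, over 2.0 kb (0.8%).

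The widest alpha peaks of the A2780-derived lists and of the CAOV4 lists lay at different places. In A2780, 2 peaks of 1.2 kb were the widest, and the first of them (chr5:140305401-140306600) had the same boundaries in the shMBD3.232 H3K27ac list and in the A2780cis H3K9ac list. In A2780cis the widest H3K27ac peak was 1.8 kb (chr5:140345401-140347200), and with shMBD3.26 it was 2.2 kb (chr5:140344401-140346600), both around the second of these places. In CAOV4 the widest was 3.8 kb near the end of the window (chr5:140381401-140385200), where no other list had a peak. In CAOV4cis it was also 3.8 kb, but near the beginning (chr5:140180001-140183800), where CAOV4 had 1.6 kb and the A2780-derived lists had none.

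In the beta window, H3K27ac covered more length in the resistant line of each pair, and H3K9ac covered more in A2780cis than in A2780. H3K27ac peaks numbered 7 over 6.2 kb (2.7%) in A2780 and 8 over 10.2 kb (4.43%) in A2780cis. They numbered 6 over 7.6 kb (3.3%) in CAOV4 and 10 over 14.2 kb (6.17%) in CAOV4cis. With shMBD3.26 there were 6 peaks over 5.8 kb (2.52%), and with shMBD3.232 there were 6 over 4.8 kb (2.09%). H3K9ac showed 4 peaks over 1.8 kb (0.783%) in A2780 and 5 over 8.2 kb (3.57%) in A2780cis.

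The widest beta peak was 1.6 kb in A2780 (chr5:140473801-140475400) and 2.8 kb in CAOV4 at the same start (chr5:140473801-140476600), a place where CAOV4cis had no peak. In A2780cis the widest H3K27ac peak (chr5:140578401-140580800, 2.4 kb) and the widest H3K9ac peak (chr5:140577001-140580400, 3.4 kb) overlapped, and the widest peak with shMBD3.232 (chr5:140578201-140579800, 1.6 kb) lay at the same place. With shMBD3.26 the widest peak (chr5:140419401-140421400, 2.0 kb) crossed the beginning of the window, and the widest H3K9ac peak of A2780 (chr5:140420001-140420800, 0.8 kb) began at its first base. In CAOV4cis, 2 peaks of 2.4 kb were the widest, the first of them at chr5:140463201-140465600. The last position of the beta window (chr5:140603001-140603800) held only an A2780cis H3K9ac peak, and no list had a peak between it and the end of the window.

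In the gamma window, the covered share was highest in all lists, and its last part decided the value in A2780. Without the peaks from chr5:140890801 on, the beta share was larger than the gamma share in A2780cis for both marks. The same held for H3K27ac in A2780 and with shMBD3.232. H3K27ac peaks numbered 5 over 13.4 kb (6.7%) in A2780 and 7 over 13.4 kb (6.7%) in A2780cis. They numbered 6 over 11.4 kb (5.7%) in CAOV4 and 9 over 21.8 kb (10.9%) in CAOV4cis. With shMBD3.26 there were 8 peaks over 10.4 kb (5.2%), and with shMBD3.232 there were 5 over 7.2 kb (3.6%). H3K9ac showed 3 peaks over 2.2 kb (1.1%) in A2780 and 5 over 13.4 kb (6.7%) in A2780cis.

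The widest gamma peak of A2780 measured 9.2 kb and ended exactly at the edge of the window (chr5:140890801-140900000), so that it supplied most of the 13.4 kb. At the same place A2780cis had 5.2 kb (chr5:140891401-140896600), shMBD3.26 had 2.8 kb (chr5:140892001-140894800), shMBD3.232 had 3.4 kb (chr5:140892601-140896000), CAOV4cis had 1.0 kb and CAOV4 had no peak. For H3K9ac, A2780cis had a peak of 3.2 kb at this place (chr5:140891401-140894600) and a peak of 6.0 kb that ran over the edge (chr5:140896001-140902000). The A2780 H3K9ac peak of 7.4 kb began 2.8 kb after the edge (chr5:140902801-140910200), outside the window. With each window moved out by 10 kb at both ends, the gamma H3K9ac share was 4.27% in A2780 and 7.0% in A2780cis, and the H3K27ac share was 9.09% in A2780 and 7.09% in A2780cis. Whether these peaks belong to the last gamma genes or to DIAPH1, the next gene, was not tested. The widest H3K9ac peak of A2780 inside the gamma window was 1.6 kb (chr5:140856201-140857800), and A2780cis had no H3K9ac peak there.

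The CAOV4 lines had their widest gamma peaks near the beginning of the window, at chr5:140704801-140708000 in CAOV4 (3.2 kb) and at chr5:140710001-140714800 in CAOV4cis (4.8 kb). The first of these places held 3.2 kb in CAOV4, 4.2 kb in CAOV4cis and 0.4 kb in each of A2780cis and shMBD3.26. The second held 0.8 kb in CAOV4 and no peak in any A2780-derived list.

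**Figure D3:**
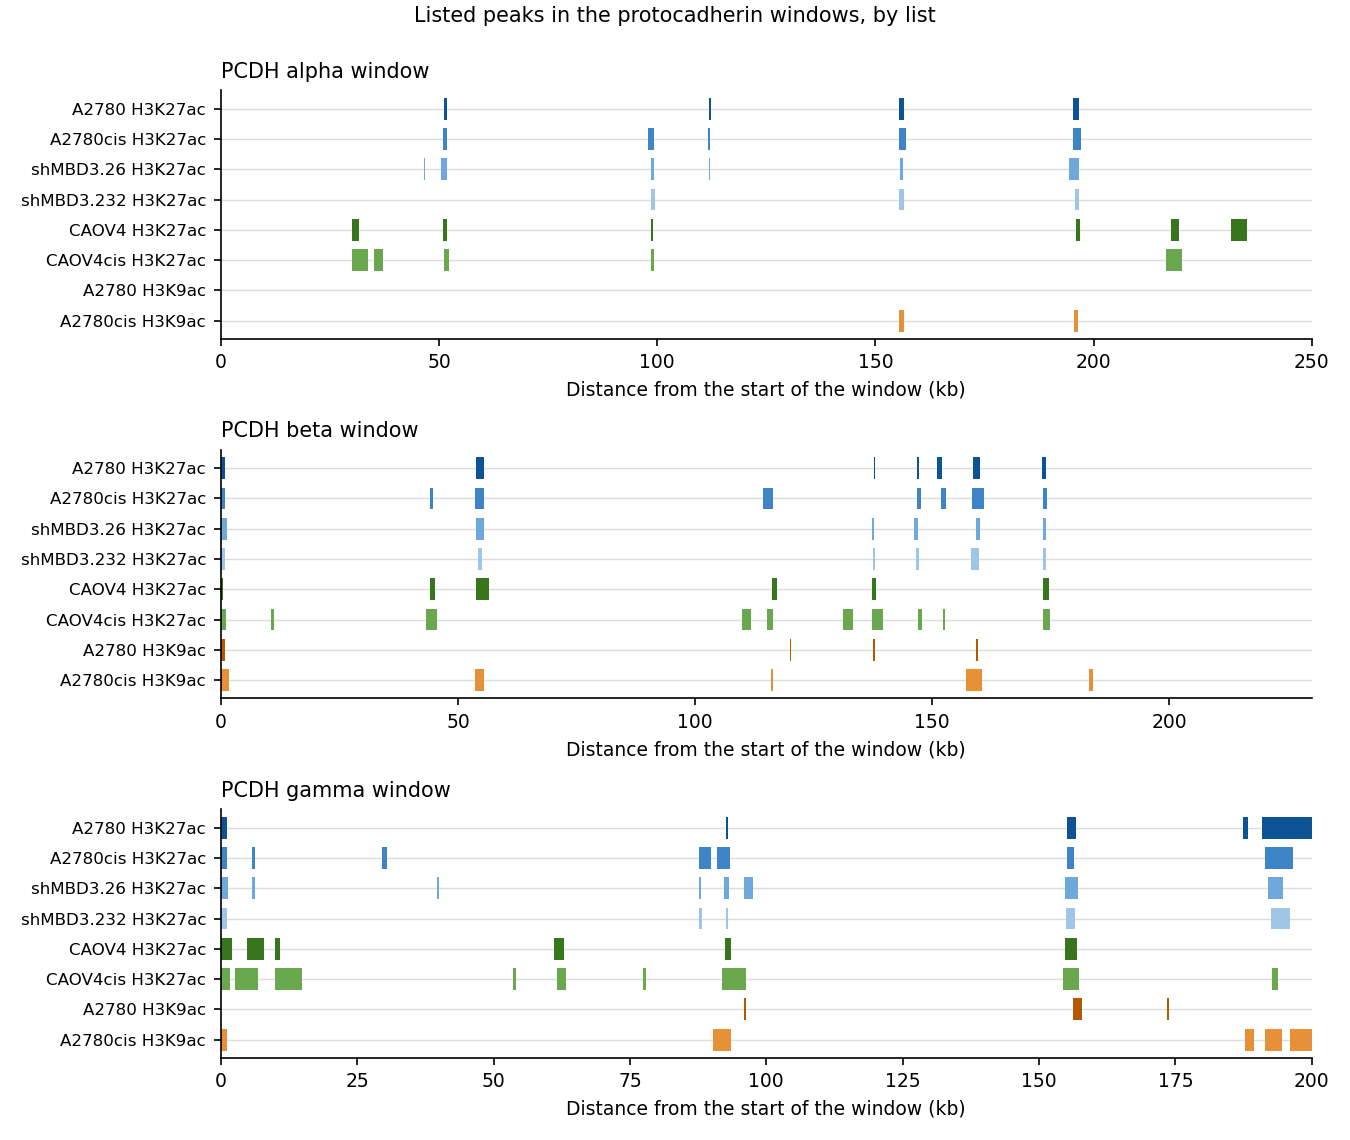
Position of the listed peaks in the alpha, beta and gamma windows (horizontal axis, kb from the start of each window) for the 8 lists (rows), drawn to scale and clipped at the window edges. Peaks of different lists fall in narrow columns with long empty stretches between them, and the last part of the beta window holds no peak.

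Peaks of the 8 lists shared places. Merged over all lists, the 131 peaks, with 1 A2780 H3K27ac peak beyond the end of the gamma window that a member overlaps, formed 38 positions, with 10 in the alpha, 14 in the beta and 14 in the gamma window, numbered along each window. The median gap between neighboring positions was 12.2 kb in the alpha, 8.0 kb in the beta and 9.6 kb in the gamma window, and the largest gaps were 45.8, 53.2 and 56.8 kb. H3K27ac was listed at 35 of the positions. The other 3 held H3K9ac alone, 2 in the beta and 1 in the gamma window, each in 1 list and over 0.2 to 0.8 kb.

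At 5 of the 35 positions, all 6 H3K27ac lists had a peak (14.3%, interval 4.81 to 30.3), beside 12.4% of the 52904 positions of the whole series. The first position of the beta window (chr5:140419401-140421800) had 1.2 kb in A2780, 1.4 kb in A2780cis, 2.0 kb with shMBD3.26, 1.2 kb with shMBD3.232, 0.6 kb in CAOV4 and 1.6 kb in CAOV4cis, and both H3K9ac lists had a peak there. The first position of the gamma window (chr5:140699201-140702000) had 1.6 kb in A2780, A2780cis and with shMBD3.232, 2.0 kb with shMBD3.26 and 2.4 kb in both CAOV4 lines. Both positions cross the start of their window, and the second of them was close in width in all A2780-derived lists. Whether the second belongs to a gamma gene or to a gene between the arrays, such as TAF7, was not tested. The other 3 were position 13 of the beta window (chr5:140593201-140594800, 0.6 to 1.4 kb), position 10 of the gamma window (chr5:140790201-140797600, 0.4 to 4.4 kb) and position 11 of the gamma window (chr5:140854401-140857800, 1.2 to 3.0 kb). At position 10 of the gamma window, the H3K27ac length was 0.4 kb in A2780 and 2.4 kb in A2780cis, and 1.2 kb in CAOV4 and 4.4 kb in CAOV4cis. It was 2.6 kb with shMBD3.26 and 0.4 kb with shMBD3.232, and H3K9ac covered 0.2 kb in A2780 and 3.4 kb in A2780cis. This position was thus wider in the resistant line of each pair and for each mark, although the H3K9ac peaks of A2780 and A2780cis lay at different ends of it, and the shRNAs differed from each other there. No alpha position was in all 6 lists.

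A peak in 1 H3K27ac list only was found at 11 of 35 positions (31.4%, interval 16.9 to 49.3), beside 54.6% over the whole series. Of these 11, 6 were peaks of CAOV4cis alone, at alpha 2, beta 2, 5 and 8 and gamma 6 and 8, with 0.6 to 2.0 kb each. The other 5 were 2 of shMBD3.26 (alpha 3 and gamma 5, 0.2 and 0.4 kb), and 1 each of CAOV4 (alpha 10, 3.8 kb), A2780cis (gamma 4, 0.8 kb) and A2780 (gamma 13, 1.0 kb). The shMBD3.232 list had no position of its own.

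The lines of different origin differed at some positions. All 4 A2780-derived lists but neither CAOV4 line had a peak at 2 of 35 positions, beside 4.28% over the whole series. These were alpha 7 (chr5:140305401-140307000) with 1.2 kb in A2780, 1.6 kb in A2780cis, 0.8 kb with shMBD3.26 and 1.2 kb with shMBD3.232, and beta 12 (chr5:140577001-140580800) with 1.4, 2.4, 0.8 and 1.6 kb in the same order. Both also carried H3K9ac in A2780cis, over 1.2 kb and 3.4 kb, and in A2780 it was listed only at the second, over 0.4 kb. Both CAOV4 lines but no A2780-derived list had a peak at 4 of 35 positions, beside 6.77%. These were alpha 1 (1.6 kb in CAOV4 and 3.8 kb in CAOV4cis), alpha 9 (1.8 and 3.6 kb), gamma 3 (0.8 and 4.8 kb) and gamma 7 (2.0 and 1.6 kb), of which 3 were wider in CAOV4cis. H3K9ac, measured only in A2780 and A2780cis, was listed at 12 of the 35 positions in at least 1 of these lines (34.3%, interval 19.1 to 52.2), beside 29.2% over the whole series, and at none of the 4.

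**Figure D4:**
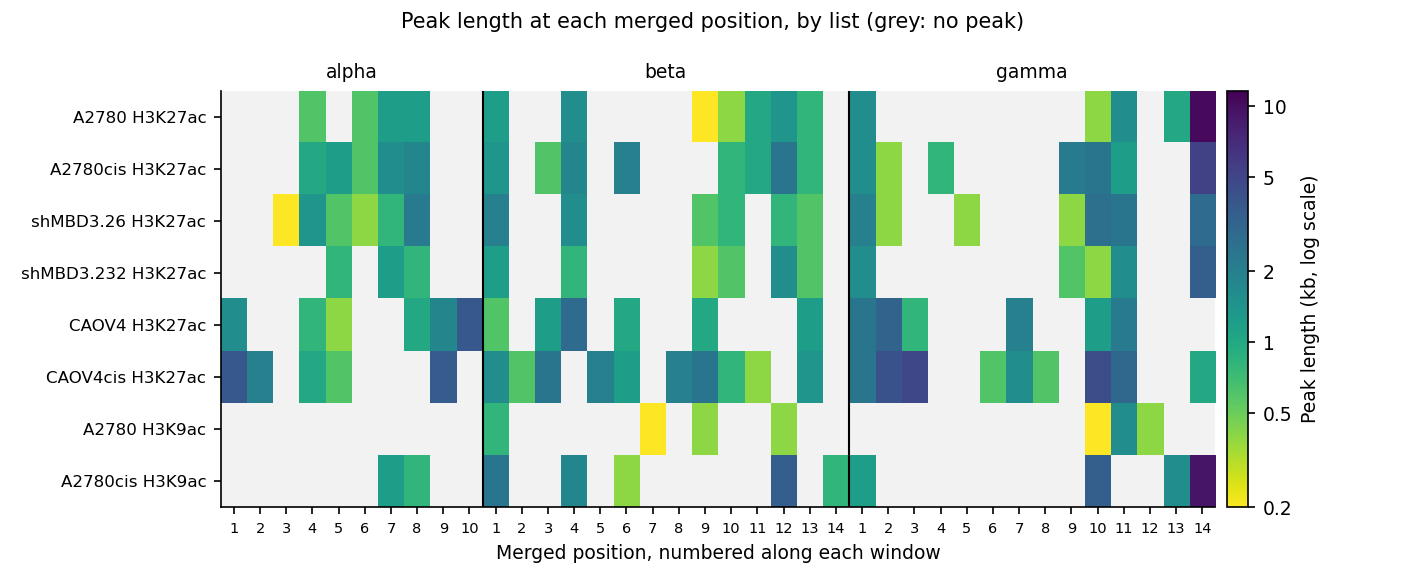
Summed length of the peaks (color, kb, log scale) at each of the 38 merged positions (horizontal axis, numbered along the alpha, beta and gamma windows) in the 8 lists (rows), with grey where no peak was listed. Peaks are drawn whole, and the 10.6 kb of A2780 H3K27ac at gamma 14 add to the member of 9.2 kb a separate peak of 1.4 kb beyond the window edge. The columns filled in all 6 H3K27ac rows are beta 1 and 13 and gamma 1, 10 and 11.

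The comparison of A2780 with A2780cis asked which acetylated places differ between sensitive and resistant cells of the same origin. For H3K27ac, the lists formed 22 merged regions in the 3 windows, of which 14 were in both (63.6%, interval 40.7 to 82.8), beside 44.0% of all merged regions of these lists. In A2780 only there were 2 (9.09%, interval 1.12 to 29.2), beside 38.1%. In A2780cis only there were 6 (27.3%, interval 10.7 to 50.2), beside 17.9%. The lists over the whole genome were thus weighted toward A2780, and the protocadherin windows toward A2780cis, by few regions. The A2780-only regions measured 0.2 kb (chr5:140557801-140558000) in the beta and 1.0 kb (chr5:140887401-140888400) in the gamma window. The widest A2780cis-only regions were 1.2 kb in the alpha (chr5:140248001-140249200), 2.0 kb in the beta (chr5:140534401-140536400) and 2.2 kb in the gamma window (chr5:140787601-140789800). The widest shared regions were 1.8 kb in the alpha, 2.4 kb in the beta and 9.2 kb in the gamma window.

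For H3K9ac in the same lines, the lists formed 17 merged regions, and 2 were in both (11.8%, interval 1.46 to 36.4), beside 32.4%, both in the beta window. In A2780 only there were 5 (29.4%, interval 10.3 to 56.0), beside 46.0% of all merged H3K9ac regions. In A2780cis only there were 10 (58.8%, interval 32.9 to 81.6), beside 21.7%. The A2780-only regions had a median width of 400 bp and the A2780cis-only regions of 1400 bp, beside 800 and 1200 bp over all merged H3K9ac regions. The A2780-only regions were thus the shorter ones here and also over the whole lists. The widest A2780cis-only regions were 1.2 kb in the alpha (chr5:140305401-140306600), 1.8 kb in the beta (chr5:140473601-140475400) and 6.0 kb in the gamma window (chr5:140896001-140902000), the last beside the A2780 peak that lies past the edge. The widest A2780-only regions were 0.4 kb in the beta (chr5:140557601-140558000) and 1.6 kb in the gamma window (chr5:140856201-140857800).

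In CAOV4 and CAOV4cis, 15 of 27 merged H3K27ac regions were in both lists (55.6%, interval 35.3 to 74.5), beside 37.1% of all merged regions. In CAOV4 only there were 3 (11.1%, interval 2.35 to 29.2), beside 29.1%, and in CAOV4cis only there were 9 (33.3%, interval 16.5 to 54.0), beside 33.8%. The CAOV4cis-only share was thus near that of the whole lists and the CAOV4-only share was below it. The CAOV4-only regions lay in the alpha window (2, the wider of 3.8 kb) and in the beta window (1 of 2.8 kb), and none lay in the gamma window. The widest CAOV4cis-only regions were 2.0 kb in the alpha (chr5:140185201-140187200), 2.0 kb in the beta (chr5:140529801-140531800) and 1.0 kb in the gamma window (chr5:140892801-140893800). Of the 5 CAOV4cis-only regions of the beta window, the median width was 800 bp. The widest shared regions were 3.8 kb in the alpha, 2.4 kb in the beta and 5.4 kb in the gamma window (chr5:140702601-140708000), and all 15 had a median width of 2400 bp.

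Set beside each other, the sensitive lines A2780 and CAOV4 shared 9 of 25 merged H3K27ac regions (36.0%, interval 18.0 to 57.5). In A2780 only there were 7 (28.0%), beside 44.3% of all merged regions, and in CAOV4 only there were 9 (36.0%), beside 31.2%. The widest A2780-only regions were 1.2 kb in the alpha, 1.4 kb in the beta and 9.2 kb in the gamma window, and the widest CAOV4-only regions were 3.8, 1.2 and 3.2 kb. The resistant lines A2780cis and CAOV4cis shared 13 of 31 regions (41.9%, interval 24.5 to 60.9). In A2780cis only there were 7 (22.6%), beside 32.2%, and in CAOV4cis only there were 11 (35.5%), beside 41.6%. The widest A2780cis-only regions were 1.8 kb in the alpha, 2.4 kb in the beta and 2.2 kb in the gamma window, and the widest CAOV4cis-only regions were 3.8, 2.4 and 4.8 kb. Over all merged regions, 24.5% were shared by the sensitive and 26.2% by the resistant lines, and both values lie inside the intervals of the protocadherin regions.

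The MBD3 knockdown lists were compared with the list of untreated A2780 cells, which is the same list for both shRNAs. With shMBD3.26, 13 of 23 merged regions were in both lists (56.5%), beside 48.0% of all merged regions, 3 were in A2780 only (13.0%), beside 34.0%, and 7 were in the shMBD3.26 list only (30.4%), beside 18.0%. With shMBD3.232, 12 of 18 were in both lists (66.7%), beside 49.0%, 4 were in A2780 only (22.2%), beside 40.1%, and 2 were in the shMBD3.232 list only (11.1%), beside 10.9%. The 7 regions of shMBD3.26 only had a median width of 400 bp, and such regions were also narrow over the whole lists, with a median of 600 bp. The widest of the 7 was 1.6 kb in the gamma window (chr5:140796001-140797600). The widest region of shMBD3.232 alone was 0.8 kb in the alpha window (chr5:140248601-140249400).

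Over the 3 lists together, 12 of 22 regions were in all of them (54.5%, beside 38.1% of all merged regions), among them 6 of the 7 beta regions. At beta 9, the A2780 and shMBD3.26 peaks share no base and are joined only by the shMBD3.232 peak. In the comparison of A2780 with shMBD3.26 they were therefore counted as regions of a single list. Both shRNA lists but not A2780 held 2 regions (9.09%), beside 2.01% of all merged regions of these lists. They were alpha 5, with 0.6 kb (shMBD3.26) and 0.8 kb (shMBD3.232), and gamma 9, with 0.4 kb and 0.6 kb. A2780cis also had a peak at both, over 1.2 kb and 2.2 kb, and at alpha 5 so did CAOV4 (0.4 kb) and CAOV4cis (0.6 kb), so that A2780 alone of the H3K27ac lists lacked a peak there. A2780 but neither shRNA list held 2 regions (9.09%), beside 27.2%. They were beta 11, with 1.0 kb, where A2780cis also had 1.0 kb and CAOV4cis 0.4 kb, and gamma 13, with 1.0 kb, where no other H3K27ac list had a peak. Another 4 regions were in the shMBD3.26 list alone and none in the shMBD3.232 list alone, so that all regions of the shMBD3.232 list were also in the shMBD3.26 list. The shares of these lone regions were 18.2% and 0%, beside 14.5% and 7.11% of all merged regions.

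H3K27ac and H3K9ac were compared in A2780 and A2780cis, in which both were profiled. In A2780, an H3K9ac peak lay on 4 of the 16 H3K27ac peaks (25.0%, interval 7.27 to 52.4), beside 45.0% over the whole list, and an H3K27ac peak on 4 of the 7 H3K9ac peaks (57.1%, interval 18.4 to 90.1), beside 66.6%. In A2780cis, an H3K9ac peak lay on 9 of the 20 H3K27ac peaks (45.0%, interval 23.1 to 68.5), beside 52.9%, and an H3K27ac peak on 10 of the 12 H3K9ac peaks (83.3%, interval 51.6 to 97.9), beside 82.4%. In A2780cis, both shares were thus near those of the whole lists. By length, 8.62% of the H3K27ac peaks carried H3K9ac in A2780 and 48.3% in A2780cis, where the whole lists had 44.0% and 50.6%. The A2780 value was 0.0% in the alpha, 22.6% in the beta and 4.48% in the gamma window, and the A2780cis value was 32.3%, 49.0% and 55.2%. The A2780 H3K27ac peak of 9.2 kb at the end of the gamma window held no H3K9ac peak.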

How the data were processed

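H3K27ac and H3K9ac were measured by ChIP-seq, with 1 library per condition and a *D. melanogaster* spike-in of 5%. The authors aligned reads with Bowtie2 on Galaxy, applied a quantile normalization, and ran MACS2 on each sample, with versions not given in the sources used here. The submitters' processing notes name GRCh37 and hg19. The deposited lists give the start and end of each peak, and their score column is always 0 and was therefore ignored. No step in the sources explains the grid of 200 bp, so widths are those of the lists. Of the listed peaks, 6 off the standard chromosomes were left out. Read depth is unknown, and the intervals cover counting error only.

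Peaks were counted whole, and covered lengths were clipped at the window edges. Peaks of different lists sharing at least 1 bp were merged and classed by the lists that held them. No test was run. Named regions are the widest peak of each list and the widest merged region of each class in each window, and positions found in sets of lists were named after their values were seen. The windows and lists were chosen with earlier results of these data known. Alternatives were peaks over 2 kb, the 15365 widest peaks of each list, windows moved by 10 kb, midpoints, at least 50% of the shorter peak shared and a partner within 5 kb, and leaving out peaks at a window edge was added after seeing the data. This last setting dropped peaks that cross an edge or end at the last base of a window, and kept those that begin at its first base. Lists of markers, regulators and neighboring genes were not used because the RefSeq tables (GRCh38.p14) are of another build. Word counts over RefSeq promoters used both strands. The classing was tested on copies of the A2780 H3K27ac list from which different peaks had been removed. Python 3.11.15, numpy 2.4.6, pandas 2.3.3, SciPy 1.17.1 and matplotlib 3.10.9 were used.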

Additional observations from a re-analysis of the deposited data

How the results depend on the processing

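With 1 library per condition, no replicate was left out. No paired analysis was possible because no result comes from a test. Counting peaks by midpoint gave the same counts. Requiring that 50% of the shorter peak be shared split 1 shared H3K27ac region in each sensitive and resistant pair, giving 13 in both lists, 3 in A2780 only and 7 in A2780cis only, and 14, 4 and 10 for CAOV4 and CAOV4cis, and left the other pairs as they were. Read depth is unknown, so absence from a list does not show absence of the mark.

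Narrow peaks carried most counts. With peaks over 2 kb only, the H3K27ac members numbered 1 in A2780 (1.35% of the 3 windows), 4 in A2780cis (1.79%), 3 with shMBD3.26 (1.09%), 1 with shMBD3.232 (0.5%), 5 in CAOV4 (2.06%) and 9 in CAOV4cis (4.44%), and the H3K9ac members 0 in A2780 (0%) and 5 in A2780cis (2.32%). With each list limited to its 15365 widest peaks, the values were 1 (1.35%), 9 (3.03%), 7 (1.97%), 4 (1.15%), 8 (2.85%), 12 (5.32%) and, for A2780 H3K9ac, 1 (0.235%). The share of H3K27ac length with H3K9ac was then 0% in A2780 under both settings, and 67.2% and 66% in A2780cis.

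Regions of A2780 H3K27ac only, against A2780cis, numbered 1 with a partner within 5 kb and 0 under both size settings, and regions of A2780cis only numbered 3 over 2 kb. For H3K9ac, A2780-only regions numbered 3 (5 kb), 0 (2 kb) and 1 (widest), and A2780cis-only regions 5 over 2 kb. H3K9ac regions in both lists, 2 as reported, numbered 5 (5 kb), 0 (2 kb) and 0 (widest). A2780cis-only H3K9ac regions, 10 as reported, numbered 7 (5 kb). Against shMBD3.26, A2780-only regions numbered 0 under all of these settings, and shMBD3.26-only regions 2 (5 kb) and 2 (2 kb). Against shMBD3.232, A2780-only regions numbered 2 (5 kb), 0 (2 kb) and 0 (widest), and shMBD3.232-only regions 1 (5 kb) and 0 (2 kb). Against CAOV4, A2780-only regions numbered 1 (2 kb) and 1 (widest), and CAOV4-only regions 5 (2 kb). A2780cis-only regions against CAOV4cis numbered 3 (2 kb).

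With windows moved out by 10 kb, the covered share was 4.08% in A2780 H3K27ac and 1.51% in A2780 H3K9ac. Without peaks at a window edge, it was 1.76% in A2780 H3K27ac and 2.62% in A2780cis H3K9ac. The A2780 value of this setting lacks the peak of 9.2 kb that ends at the edge of the gamma window without crossing it. The covered share was higher in CAOV4cis than in CAOV4 in 13 of 13 combinations of window and setting, and for H3K9ac in A2780cis than in A2780 in 12 of 13. For H3K27ac in the A2780 pair this held in 11 of 13. The combinations are not separate checks, because they use the same lists and count the 3 windows together beside each single window. The setting reported above is not among them. In the gamma window the difference of A2780cis minus A2780 was 0 as reported, 0.3 percentage points with peaks over 2 kb, 0.9 with the widest peaks and -2.0 with windows moved out by 10 kb.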
